A study of Zea mays with 24 samples.

Results

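The 200 maize genes described here had their highest level in the root endodermis, above every other tissue sampled. They were chosen from 39332 gene identifiers by their measured values. The endodermis mean over 3 libraries had to be at least 100 normalized units and at least 2 times the mean of the next-highest group, and the lowest endodermis library had to lie above that next mean. In all, 492 identifiers met these conditions, and the 200 with the highest ratio of the endodermis mean to the next mean, each with 1 unit added, were kept. Because the endodermis values chose the genes, every difference between endodermis and another group is given as a description without a test. Only differences among the other 7 groups were tested.

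The endodermis is the innermost layer of the root's ground tissue and encloses the stele, the central cylinder that holds the xylem and phloem. Its cell walls carry the Casparian strip, a lignified band that blocks movement through the wall, and later suberin lamellae, so water and solutes must cross a cell membrane to reach the stele. The transcription factor SCARECROW, best known from Arabidopsis, acts in the division that separates endodermis from cortex, and there its gene is active in the endodermis and in the quiescent center. Known genes of the tissue include those for the proteins that assemble the Casparian strip, for suberin synthesis and for nutrient transport. The deposited table gives identifiers without names, and 0 of its 39510 identifiers matched the supplied reference of 49888 genes. The members are therefore named by identifier, no role is given to any of them, and the endodermis label could not be checked against marker genes.

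RNA was sequenced from root tips of maize at 7 days after germination, grown at 26 °C with 12 h of light a day, in 24 libraries of 8 groups with 3 replicates each. Endodermis came from a line carrying the ZmSCR::RFP reporter and quiescent center from a line carrying ZmWOX5::RFP, both in B73/Hi-II, by sorting protoplasts, which are cells freed of their walls by enzymes. Epidermis, cortex and stele were sorted from wild-type B73 protoplasts after 15 min in the dyes syto 40 and syto 81. Unsorted protoplasts without root cap, intact tips without cap and dissected root cap were also wild-type B73. Against the wild-type B73 groups, reporter sorting, the mixed background and the endodermis itself cannot be told apart in this design. The quiescent center shares reporter sorting and the mixed background with the endodermis. Between those groups the reporter line and the tissue cannot be told apart. Whether the replicates are separate plants is not in the labels, so p-values speak only of the spread among the sampled libraries, which may be technical. In bulk samples such as these, fewer cells of a type and less RNA per cell cannot be told apart.

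Values are read counts that the authors scaled to a common library size, and 1 read was worth 0.604 to 1.49 units. Libraries held 21978670 to 50289026 reads, and the 3 endodermis libraries held 40707719, 44992218 and 50289026. For a gene at 0 in a library, counting error allows up to 3 reads, or 1.81 to 4.46 units. The values are not divided by gene length, so ratios, relative levels and tests are taken within a gene. Where genes are ranked by level or summed below, gene length is not corrected for.

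A pair of libraries stood apart for these genes. Endodermis replicate 1 was the lowest of its group for 129 members, and cortex replicate 3 was the highest of its group for 160 members. The shares, relative levels and counts of calls that rest on them are given with and without them below. No 2 replicates of a group agreed within sampling noise.

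**Figure D1:**
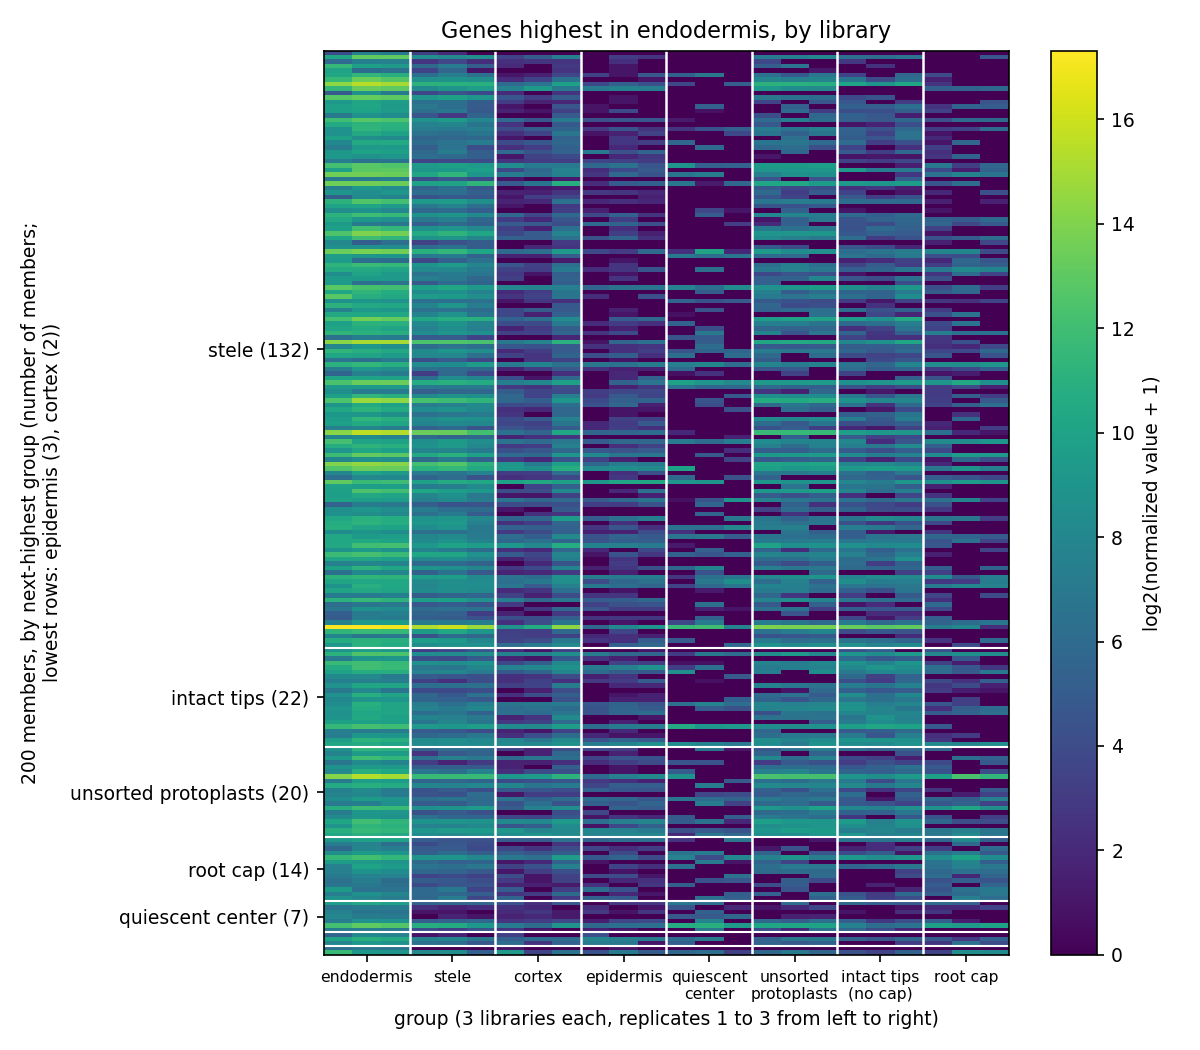
Each row is 1 of the 200 genes and each column 1 of the 24 libraries, coloured by log2 of the normalized value plus 1, with rows grouped by the group of next-highest mean. The 3 endodermis columns are the brightest, stele follows in 132 rows, and 84 genes are at 0 in all 3 quiescent center columns.

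How far the endodermis stood above the next group varied widely among members. The rule set a lowest endodermis mean of 100 units, and that mean ran from 102 to 150112 units, with a median of 926, and 93 members reached 1000 units. The ratio to the next group ran from 3.50 to 77.4, with a median of 4.99. It was at least 5 for 99 members, at least 10 for 30 and at least 20 for only 4. In 182 members the lowest endodermis library also exceeded each of the 21 other libraries. The rule had already placed that library above the next group's mean, so this count follows largely from the choice and is a description. Among the 18 exceptions, quiescent center replicate 2 held the highest value for 5 and stele replicate 2 for 3.

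The end of the list was not a break in the data. At rank 200, Zm00001d025400 had 1459.5 ± 787 units in the endodermis against 416 ± 58.3 in the stele (SD, n = 3). Just outside, at rank 201, Zm00001d013038 had 764 ± 288 against 218 ± 44.2 in the stele (SD, n = 3). Their ratios were 3.50 and 3.49, and the ranks on either side were as close. Inside the list, Zm00001d035681 had 155 ± 78.2 against 43.3 ± 21.7 and Zm00001d039942 had 1945 ± 304 against 552 ± 263, both next in the stele (SD, n = 3). Outside it, Zm00001d006721 had 147 ± 77.0 against 41.2 ± 71.4 and Zm00001d012443 had 220.1 ± 132 against 62.6 ± 17.5, both next in the quiescent center (SD, n = 3).

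The highest-ranked gene, Zm00001d009514, was almost absent outside the endodermis. Its values were 89.3, 118 and 105 in the endodermis, 1.06 in 1 cortex library and 1.01 in 1 epidermis library. The other 19 libraries were at 0, so its ratio of 77.4 rests on the 1 unit added to each mean. At rank 2, Zm00001d032750 had 451, 852 and 561 in the endodermis, 7.64, 11.8 and 27.1 in the stele, and 0 in all unsorted protoplast and quiescent center libraries. Its next-highest group was intact tips, where replicates gave 18.9, 36.9 and 0, so those libraries disagreed about its presence.

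Low values in endodermis replicate 1 were frequent among the genes of highest rank. For Zm00001d032636, at rank 5, the endodermis libraries held 1135, 8808 and 8844 units, while the stele held 363, 264 and 377. Unsorted protoplasts held 144, 177 and 269 units of this gene and intact tips 81.5, 75 and 95.3. Endodermis replicates 2 and 3 thus stood far above the first, which was still above every other library. Zm00001d047680, at rank 6, repeated this shape with 455, 2394 and 2179 in the endodermis and 50.1, 72.7 and 57.0 in the stele. Zm00001d038296, at rank 8, gave 209, 718 and 717, and Zm00001d006279, at rank 7, gave 65.9, 179 and 181. Zm00001d002505 and Zm00001d028445, at ranks 3 and 4, were at lower levels, at 49.6, 275 and 205 and at 16.3, 187 and 134.

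The remaining 2 of the first 10 went the other way. Zm00001d050346, at rank 9, had 2923 units in endodermis replicate 1 and 909 and 638 in the others. Its stele values of 63.7, 147 and 33.6 were the next highest. Zm00001d035558, at rank 10, had 999 units in endodermis replicate 1 against 67.0 and 85.9 in the others. Stele replicate 2, at 52.4, came near to those lower endodermis libraries, and intact tips, root cap and quiescent center were at 0.

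The 5 members of highest endodermis mean were each also clearly present in the stele and in unsorted protoplasts. Zm00001d024281 held 154360.4, 162438 and 133537 units in the endodermis, the largest values of the list, and 39581, 60717 and 26215 in the stele. In the cortex it held 447, 1578 and 21712, so cortex replicate 3 was far above the others. Unsorted protoplasts held 15278, 14698 and 14545 and intact tips 10173, 7588 and 8727, both with little spread. Despite its level this gene ranked 193, since its stele mean was 28.1% of its endodermis mean.

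Zm00001d049606 held 19620.0, 50581 and 40718 units in the endodermis, with endodermis replicate 1 the lowest. Its stele libraries held 10239, 9977 and 4229, and its cortex libraries 91.5, 48.0 and 1292. Zm00001d010755 held 19687, 33706 and 32223 in the endodermis, 5547, 5865 and 5305 in the stele, and 129, 210.1 and 2161 in the cortex. In both genes cortex replicate 3 was again above the other cortex libraries by a wide margin. Zm00001d027500 held 20785, 45079 and 31722 in the endodermis, with near-equal values in stele (2268, 2169.7 and 2012) and unsorted protoplasts (2201, 2130.2 and 1963). Zm00001d051223 held 18165, 43404 and 32316 in the endodermis and was next highest in unsorted protoplasts, at 5123, 4794 and 4742.

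Summed over members, these genes took up 2.12 ± 0.502% of the values of an endodermis library (SD, n = 3), with 1.59, 2.58 and 2.18% in replicates 1 to 3. Stele followed at 0.375 ± 0.0736%, unsorted protoplasts at 0.187 ± 0.00514% and intact tips at 0.115 ± 0.0217% (SD, n = 3). Cortex libraries held 0.0334, 0.0368 and 0.188%, so the cortex mean of 0.0861 ± 0.0883% was set by replicate 3 (SD, n = 3). Without it the cortex share was 0.0351 ± 0.00244% (SD, n = 2), and without endodermis replicate 1 the endodermis share was 2.38 ± 0.286% (SD, n = 2). Quiescent center held 0.0495 ± 0.0227%, root cap 0.0441 ± 0.00917% and epidermis 0.0225 ± 0.00529% (SD, n = 3). Zm00001d024281 contributed unequally to these sums. Without it the endodermis share was 1.62 ± 0.481% and the stele share 0.247 ± 0.0333% (SD, n = 3). Root cap and epidermis changed little, to 0.0437% and 0.0215%, and quiescent center, at 0.0381%, then lay below root cap instead of above it. The order of stele, unsorted protoplasts and intact tips was the same without that gene.

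**Figure D2:**
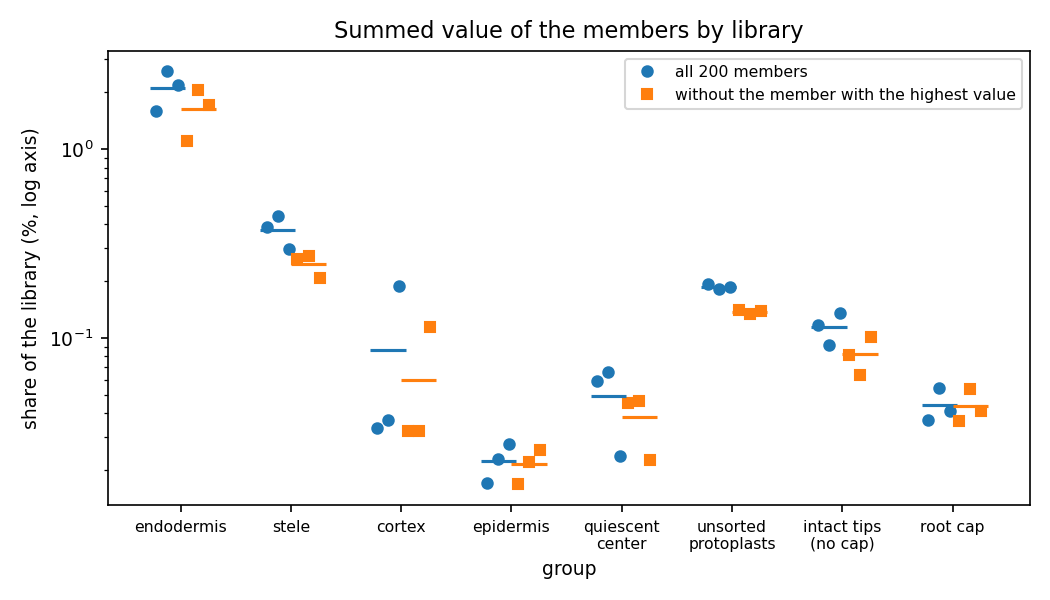
Circles show the summed value of the 200 genes as a percentage of all values in each of the 24 libraries, squares the same without Zm00001d024281, on a log axis, and horizontal lines the mean of 3 libraries per group. Endodermis circles lie at 1.59 to 2.58%, stele circles lie between 0.296 and 0.441%, and that of cortex replicate 3 lies at 0.188% above the other 2 cortex libraries.

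By the median level relative to endodermis, members stood highest in the stele and lowest in the quiescent center and epidermis. As a percentage of its own endodermis mean, the median member stood at 16.8% in the stele, 7.37% in unsorted protoplasts, 4.25% in intact tips and 3.16% in the cortex. The median was 1.02% in root cap, 0.620% in epidermis and 0.347% in quiescent center. Without cortex replicate 3 the cortex median was 1.09%, near that of root cap. Without endodermis replicate 1 the order of the 7 medians was the same, from 15.6% in the stele to 0.308% in the quiescent center. The rule capped all these levels, since it kept only genes low elsewhere. Over all 15662 genes with an endodermis mean of at least 100, the medians ran from 77.1% in the quiescent center to 97.6% in the stele.

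The spread around these medians was wide. The middle 50% of members lay between 10.4 and 22.1% in the stele, 3.80 and 11.8% in unsorted protoplasts and 1.29 and 10.7% in intact tips. A level of at least 10% of endodermis was reached by 151 members in the stele, 67 in unsorted protoplasts, 53 in intact tips, 32 in root cap, 25 in quiescent center, 24 in cortex (14 without cortex replicate 3) and 11 in epidermis. A level under 1% was seen for 126 members in epidermis, 118 in quiescent center and 98 in root cap, against 4 in the stele. Stele means exceeded epidermis means for 190 members and cortex means for 190. They exceeded unsorted protoplast means for 162 members and intact tip means for 167. Every stele library exceeded every unsorted protoplast library for 85 members, or lay below for 9, where 23.2% and 13.5% of genes with an endodermis mean of at least 100 did so.

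**Figure D3:**
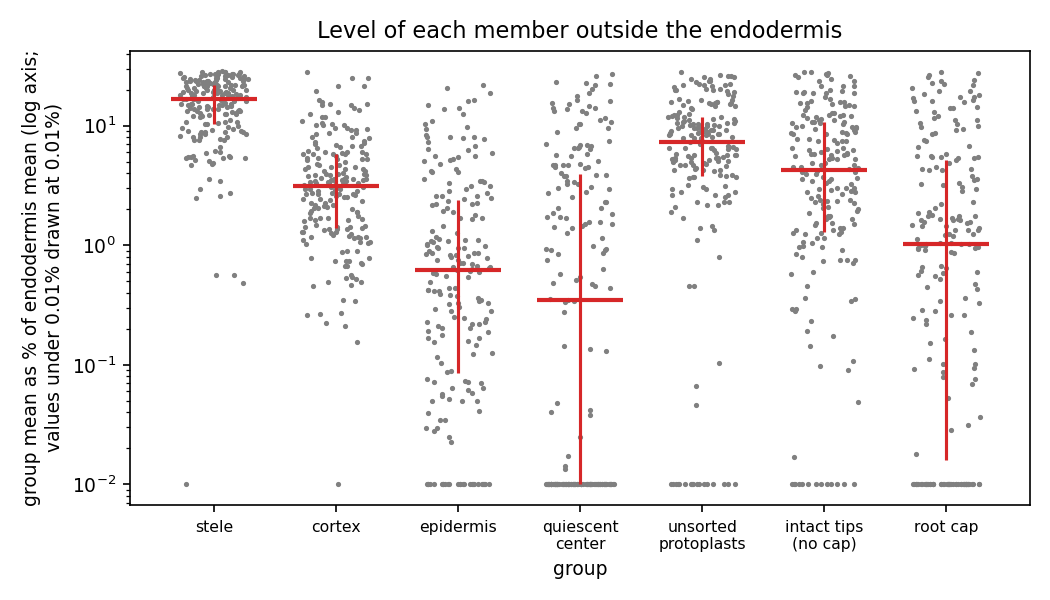
Each point is 1 gene's group mean as a percentage of its endodermis mean, on a log axis, for the 7 other groups, and values under 0.01% are drawn at 0.01%. The medians (horizontal red lines, with the middle 50% of genes as vertical lines) fall from 16.8% in the stele to 0.347% in the quiescent center.

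Complete absence was most frequent in the quiescent center. There 84 members were at 0 in all 3 libraries, which is 42.0% of members against 2.93% of the genes with an endodermis mean of at least 100. In root cap 46 members were at 0 throughout (23.0% against 1.07%), and in epidermis 24 (12.0% against 0.332%). Fewer were at 0 throughout in unsorted protoplasts (17), intact tips (12), stele (1) and cortex (1). Since low values outside the endodermis chose the members, these shares are given with no test.

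Members differed in which group came next. Stele was next for 132, intact tips for 22, unsorted protoplasts for 20, root cap for 14, quiescent center for 7, epidermis for 3 and cortex for 2. The 132 genes next in the stele stood at a median of 19.4% there and 3.39% in intact tips. The 22 genes next in intact tips stood at 22.5% in those tips and 10.9% in the stele. The 14 next in root cap stood at 21.3% in the cap, 14.3% in the stele and 2.86% in intact tips. These classes follow from the same values that rank the genes and are a description.

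The genes with the highest level relative to endodermis in unsorted protoplasts or in intact tips were of several kinds. Zm00001d022525, with endodermis values of 1259.7, 1544 and 1018, was present in every library, and its 21 other values lay between 140.1 and 485. Zm00001d024906 was likewise broad, at 388, 321 and 543 in unsorted protoplasts against 1164, 1854 and 1404 in the endodermis. Zm00001d050404 had 506, 493 and 412 in intact tips and 0 in all quiescent center libraries, with 834, 2286 and 1924 in the endodermis. Zm00001d032190 was nearly as high in stele (515, 773 and 686) as in unsorted protoplasts (555, 787 and 688), against 1821, 3123 and 2629 in the endodermis.

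The members of highest relative level in the quiescent center rested on 1 library. Zm00001d011924 read 0, 82.0 and 0 there and Zm00001d039371 read 0, 117 and 0, so both were seen in quiescent center replicate 2 alone of that group. Of the 25 members at 10% or more there, 10 were above 0 in all 3 libraries, 7 in 2 and 8 in 1. In root cap, Zm00001d047342 read 0, 171 and 72.3 and Zm00001d052889 read 36.6, 66.9 and 121. Both cap genes had means near 28% of their endodermis mean, with replicates that disagreed.

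The 3 endodermis libraries did not carry the members equally. Replicate 2 was the highest for 138 members, or 69.0%, whereas it was the highest for 34.0% of all genes with an endodermis mean of at least 100. The median member stood at 651, 1059 and 837 units in replicates 1, 2 and 3. The median coefficient of variation between the libraries was 35.4% for members and 22.9% for those genes in general. Replicate 1 was under 50% of both others for 62 members, which is 31.0% against 6.03% in general, and over 2 times both others for 15, which is 7.5% against 14.2%.

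Genes chosen for the stele by the same conditions, 134 in number, had medians of 286, 90.0 and 92.4 units in endodermis replicates 1, 2 and 3. The same genes had medians of 569, 745 and 707 in the stele libraries. The 36 genes so chosen for the cortex had medians of 23.0, 9.36 and 13.2 in the endodermis libraries, and the 200 for epidermis 28, 6.04 and 15.0. By medians, endodermis replicate 1 was thus highest for these 3 lists and lowest for the endodermis genes. By summed share of the library, endodermis replicate 1 was highest for the stele genes (0.435, 0.207 and 0.235% in replicates 1 to 3). It was also highest for the epidermis genes (0.0896, 0.0633 and 0.0673%) but lowest for the cortex genes (0.0252, 0.0282 and 0.0283%). The part of those lists in the values of replicate 1 was not tested.

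Selection without each endodermis library in turn left a library that the choice had not used. The next group's means did take part in that choice, which kept genes where they were low. The counts that follow are therefore a description, with no share over all genes beside them. With replicate 1 left out of the choice, its values lay above the next group's mean for 190 of the 200 genes then chosen and at least 2 times above for 149. The corresponding counts were 187 and 179 for replicate 2, and 195 and 188 for replicate 3. The median ratio in the left-out library was 3.35 for replicate 1, 5.72 for replicate 2 and 4.74 for replicate 3, against 5.59, 4.90 and 5.46 in the libraries used. Of the 200 members, 171, 165 and 180 were chosen again.

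**Figure D4:**
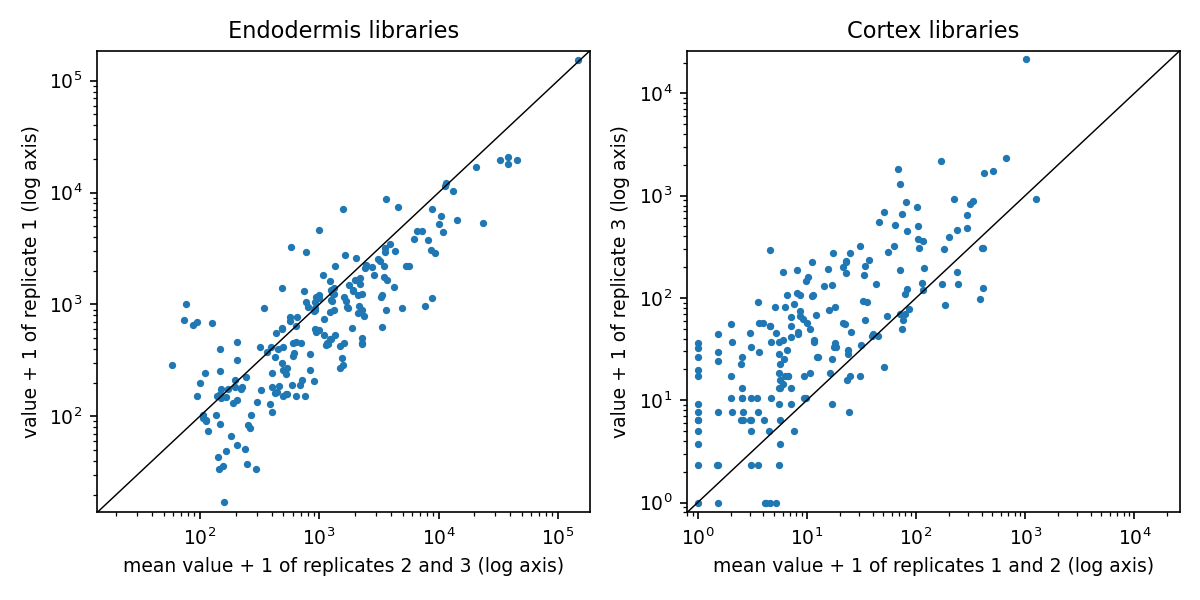
Left, each gene's value in endodermis replicate 1 against the mean of replicates 2 and 3, and right, its value in cortex replicate 3 against the mean of replicates 1 and 2, each plus 1 and on log axes, with the line of equal values. The median ratio is 0.681 for endodermis replicate 1 and 4.73 for cortex replicate 3, the latter over the 140 genes with a cortex mean of at least 10.

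In the cortex the 3 libraries differed more. The median member stood at 9.05, 9.0 and 45.2 units in cortex replicates 1, 2 and 3. Among the 140 members with a cortex mean of at least 10, replicate 3 was over 2 times each of the others for 92, or 65.7%, against 8.44% of all genes at that level. The stele genes chosen by the same conditions had medians of 74.0, 37.0 and 118 in the cortex libraries, highest in replicate 3. Their summed share was highest in replicate 1, at 0.285, 0.191 and 0.221%. The cortex genes so chosen had medians of 1303, 942 and 833 there. In stele replicate 3 the cortex genes stood at 311, against 55.6 and 66.8 in the other stele libraries. Their part in the members' values in either library was not tested.

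Differences among the other 7 groups were tested with limma on log2(value + 1) over 25170 genes, with Benjamini-Hochberg adjustment over all of them. Calls needed an adjusted p under 0.05 together with a change of at least 1 on the log2 scale. Of the 200 members, 193 had at least 10 units in at least 3 of the 21 libraries and were tested. The 7 not tested were at ranks 1, 3, 4, 7, 10, 34 and 104. A member could pass this filter through a group where it is high, so counts over all 200 are given as well. The 5 comparisons share groups and are not independent of each other. Unsorted protoplasts and intact tips were not separated by tissue, so they may hold endodermis cells. For genes chosen as high in the endodermis, a higher level there than in root cap or dye-sorted tissues may follow from the choice. The means of the other 7 groups also took part in the rule. The part of endodermis cells in these values was not tested.

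The members stood higher in stele than in cortex. In that comparison 36 were called higher and 0 lower, which is 18.0% of the 200 against 4.06% of all genes tested. By direction, 1.87% of all genes were called higher and 2.19% lower. The median log2 fold change was 2.79 for members tested and 0.08 for all genes, and 187 of 193 members lay above 0. Over all 200, the stele mean was the larger for 190, and every stele library exceeded every cortex library for 137. Every stele library lay below every cortex library for 1 member. Separation upward was seen in 14.9% and downward in 13.2% of genes with an endodermis mean of at least 100.

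Zm00001d045905 had 219, 513 and 161 units in the stele and 0, 0 and 25.7 in the cortex, with 2220.2, 1385 and 1309 in the endodermis. All stele values exceeded all cortex values, and the log2 fold change was 6.46 (SE 1.05, limma adjusted p = 0.00152). It was not called by edgeR or DESeq2 on the recovered reads (adjusted p = 0.236 and 0.165). Zm00001d035195 had 247, 421 and 122 in the stele and 1.06, 1.00 and 9.45 in the cortex. Again without overlap, its log2 fold change was 6.06 (SE 0.99, limma adjusted p = 0.00158), and edgeR did not call it (adjusted p = 0.0768).

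The number called depended on single libraries and on the tool, while the direction did not. It was 13 without stele replicate 1, 12 without stele replicate 2, 13 without cortex replicate 1, 16 without cortex replicate 2 and 58 without cortex replicate 3. Over all genes, 353, 363, 483, 948 and 1127 were called in these fits, in the same order, against 1022 in the main fit. edgeR called 7 and DESeq2 31, and neither called a member lower, nor did limma at an unadjusted p below 0.05 (106 higher, 0 lower). With edgeR the split over all genes was 161 higher and 409 lower, against 471 and 551 with limma.

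Unsorted protoplasts, made by enzyme digestion, were set against intact tips, both without root cap. Members called higher in protoplasts numbered 22 and lower 8, which is 15.0% of the 200 against 16.9% of all genes tested, so the share was near the background. Of all genes, 9.15% were called higher and 7.75% lower. The median log2 fold change was 0.63 for members and −0.15 for all genes, and the protoplast mean was the larger for 139 of 200. Every protoplast library exceeded every tip library for 57 members and lay below for 19, against 26.7% and 22.5% of genes with an endodermis mean of at least 100.

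Single members moved by large factors in either direction. Zm00001d038523 had 681, 699 and 789 units in protoplasts and 0, 0 and 1.72 in intact tips, with 4574, 7237 and 5896 in the endodermis. The libraries did not overlap, and the log2 fold change was 9.02 (SE 0.97, limma adjusted p = 7.24e-06). Zm00001d049625 had 598, 339.9 and 281 in protoplasts and 0 in all tip libraries. It was thus at least 127.7-fold higher in protoplasts against a floor of 3 reads per library.

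In the opposite direction, Zm00001d023303 had 0, 0 and 1.19 units in protoplasts and 102, 101 and 167 in intact tips, with 589.8, 947 and 1052 in the endodermis. It was absent or nearly so from unsorted protoplasts although sorted endodermis protoplasts held it, and it fell by 6.54 on the log2 scale (SE 1.23, limma adjusted p = 0.00131). Zm00001d000055 had 0, 0 and 36.9 in protoplasts and 159, 333 and 238 in tips, and it fell by 6.12 (SE 1.15, limma adjusted p = 0.00127). For Zm00001d000055 neither edgeR nor DESeq2 made the call (adjusted p = 0.108 and 0.0517).

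Members stood lower in the quiescent center than in the mean of the dye-sorted epidermis, cortex and stele. There 113 members were called lower and 5 higher, or 59.0% of the 200 against 42.7% of all genes tested. Over all genes, 27.7% were called lower and 14.9% higher. The median log2 fold change was −2.77 for members and −0.49 for all genes. It was −2.39 for members when the 79 tested members at 0 in all quiescent center libraries were set at their bound. The reporter line and background differ between these groups, and cannot be told apart from tissue.

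Zm00001d011879 had 0 in all quiescent center libraries, 4594, 6639.6 and 2194 units in the stele and 17068, 22773 and 18213 in the endodermis. It was at least 241-fold lower in the quiescent center than the geometric mean of the dye-sorted libraries. Zm00001d052124 had 1.41, 0 and 0 in the quiescent center and at least 134 in each of the dye-sorted libraries, and it fell by 8.39 on the log2 scale (SE 0.80, limma adjusted p = 2.80e-07). Zm00001d044708 was an exception among members, with 27.6, 27.3 and 55.8 in the quiescent center and at most 3.00 in any dye-sorted library. Its endodermis values were 252, 162 and 131, and its log2 fold change was 4.33 (SE 0.48, limma adjusted p = 1.75e-06).

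Quantile normalization moved the median of all genes in this comparison from −0.49 to 0.05, and 73 members were then called, 64 lower and 9 higher. The median of members was then −1.24, and it was −1.26 with a pseudocount of 10. Without cortex replicate 3, 103 members and 10513 of all genes were called. Quantile normalization called 10434 of all 25170 genes, a larger share than that of the members. With it the split over all genes was 5452 higher and 4982 lower, against 3761 and 6981 with limma on the values as deposited. It was 4332 and 5574 with edgeR and 4899 and 5916 with DESeq2, which called 85 and 98 members, and a fit with weights per group called 49.

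When unsorted protoplasts were set against the mean of the dye-sorted tissues, 19 members were called higher and 10 lower, or 14.5% of the 200 against 9.33% of all genes tested. By direction, 2.38% of all genes were called higher and 6.95% lower. The median log2 fold change was 0.96 for members and −0.23 for all genes, and 132 of 193 lay above 0. On the linear scale the protoplast mean was the larger for only 98 of 200 members. Unsorted protoplasts may hold endodermis cells, and their part in these values was not tested. Quantile normalization moved the median of all genes to 0.06 and gave 36 members higher and 1 lower, with 1036 higher and 981 lower over all genes against 598 and 1750.

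Zm00001d028829 had 63.2, 77.0 and 146 units in protoplasts, 18.7, 29.9 and 18.7 in the stele, and at most 16.2 in any cortex or epidermis library. The groups did not overlap, and its log2 fold change was 4.13 (SE 0.87, limma adjusted p = 0.00690), with adjusted p = 0.0992 by edgeR and 0.0834 by DESeq2. Zm00001d035651 had 72.6, 67.4 and 64.3 in protoplasts and 32.3, 37.4 and 27.1 in the stele. Its log2 fold change was 3.55 (SE 1.00, limma adjusted p = 0.0322), and it was not called by edgeR or DESeq2 (adjusted p = 0.102 and 0.0663). Zm00001d035651 also lost its call without any 1 protoplast library (adjusted p = 0.0905, 0.0896 and 0.0913), and without replicate 1 of stele, cortex or epidermis (adjusted p = 0.05002, 0.0540 and 0.0513). Zm00001d023303, described above at 0, 0 and 1.19 in protoplasts, also fell against the dye-sorted tissues, by 5.06 on the log2 scale (SE 1.00, limma adjusted p = 0.00478).

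The number of members called in this comparison fell when any protoplast library was left out. Without protoplast replicate 1, 5 members were called higher and 5 lower, without replicate 2, 6 higher and 7 lower, and without replicate 3, 7 higher and 4 lower. Over all genes, 309, 331 and 293 were then called higher and 1308, 1188 and 1098 lower. The median log2 fold change of members was 0.95, 1.16 and 1.05 in these fits. The totals of members were 10, 13 and 11, beside 16 without stele replicate 1 or stele replicate 2, and 17 without cortex replicate 1. Over all genes, 1787, 1643 and 1810 were called without stele replicate 1, stele replicate 2 and cortex replicate 1. Without cortex replicate 3 the total of members was 36, with 29 higher and 7 lower, and over all genes 648 were higher and 1471 lower. The fits below are set beside all genes in the closing section. The number of members called was 47 with the compared groups alone, 45 without the quiescent center in the fit and 10 with edgeR. The median of members was 0.60 with a pseudocount of 10.

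Members stood lower in the dissected root cap than in intact tips without cap. Intact tips may hold endodermis cells, so this direction may follow from how the members were chosen, which was not tested. Members called lower in the cap numbered 74 and higher 12, or 43.0% of the 200 against 31.9% of all genes tested. Over all genes the calls leaned the other way, with 13.7% lower and 18.1% higher. The median log2 fold change was −1.76 for members and 0.07 for all genes, and −1.55 for members with genes at 0 set at their bound. It was −0.80 with a pseudocount of 10. Quantile normalization moved the median of all genes to −0.25 and gave 85 members lower and 10 higher, and 4847 genes lower and 4001 higher over all genes against 3458 and 4559.

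Zm00001d048843 had 851, 440.4 and 1505 units in intact tips, 0 in all root cap libraries and 4453, 12708 and 9117 in the endodermis. It was at least 239.58-fold lower in the cap. Zm00001d027500, one of the 5 members of highest level, had 1049, 498 and 1177 in tips and 5.08, 0 and 0 in the cap, and it fell by 8.86 on the log2 scale (SE 1.11, limma adjusted p = 8.84e-06).

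The 12 members higher in the cap included genes at or near 0 in intact tips. Zm00001d036542 had 96.6, 232 and 35.1 units in the cap and 0 in all tip libraries, so it was at least 30.6-fold higher in the cap. Zm00001d042420 had 95.6, 222 and 100.4 in the cap and 0, 0 and 6.01 in tips, a log2 fold change of 6.08 (SE 1.44, limma adjusted p = 0.00302). Its endodermis values of 12071, 12109 and 11058 agreed closely between libraries, and its stele values of 1223, 2738 and 538 did not.

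**Figure D5:**
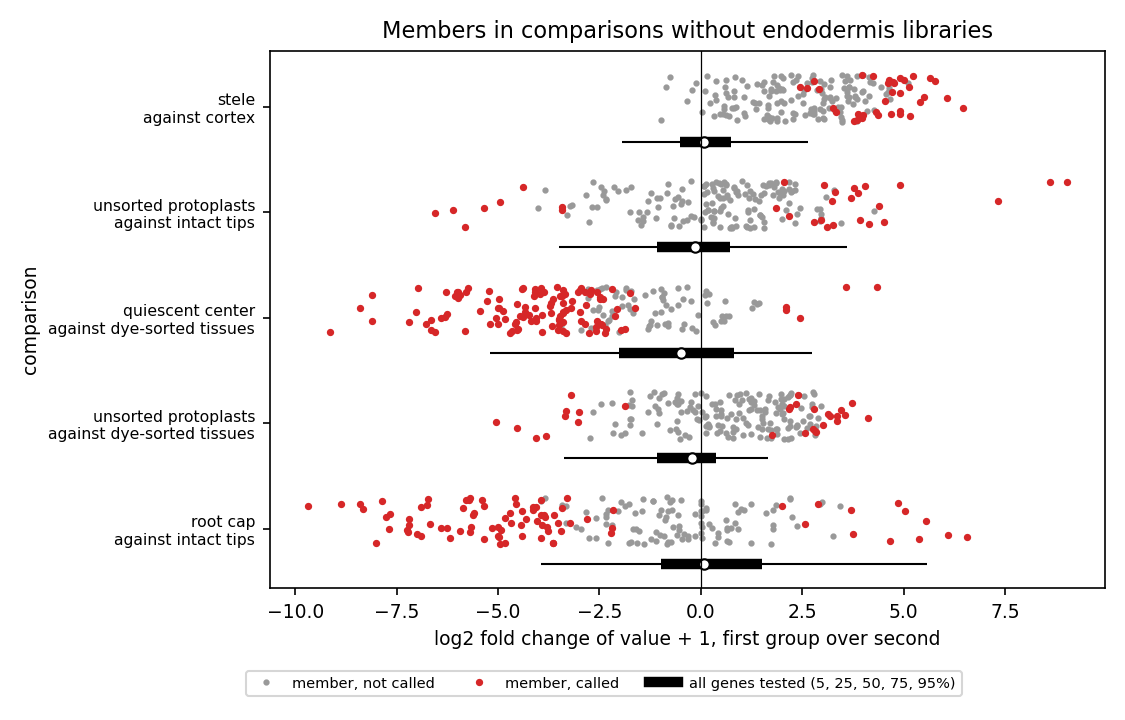
Each point is 1 of the 193 members tested, placed by its log2 fold change in 5 comparisons that use no endodermis library, red where called, with the 5th, 25th, 50th, 75th and 95th percentiles of all genes tested as black lines beneath. Members lie to the right for stele against cortex (median 2.79) and to the left for quiescent center against dye-sorted tissues (median −2.77) and root cap against intact tips (median −1.76).

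The same conditions applied to the dye-sorted tissues gave 134 genes for stele and 36 for cortex, and the first 200 of 222 for epidermis. In unsorted protoplasts the median endodermis gene stood at 7.37% of its endodermis mean, against 20.8% of the stele mean for stele genes, 22.3% of the cortex mean for cortex genes and 6.38% of the epidermis mean for epidermis genes. In intact tips the corresponding medians were 4.25, 6.56, 19.3 and 8.76%. The lists differ in how far their own tissue stood above the next, with median ratios of 4.99, 2.56, 2.55 and 3.33, so these values are set side by side without a test.

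Some members have consecutive identifier numbers and could share reads, so their values are uncertain. Zm00001d044017 had 32.6, 155 and 132 units in the endodermis and Zm00001d044018 had 42.5, 162 and 122, nearly the same profile with endodermis replicate 1 the lowest. Zm00001d022525 and Zm00001d022526 were less alike. The latter had 318, 277 and 133 in the endodermis, 0 in all unsorted protoplast libraries and 63.6, 9.52 and 42.9 in intact tips, while the former was present throughout.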

How the data were processed

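The authors deposited 1 table for the 24 libraries, in which each value is a signal, namely a gene's count over a size factor of its library. Trimmomatic, kallisto 0.43 and DESeq2 are named per the submitters' processing notes. Genome build and annotation are not given in the sources used here, and 8 columns of authors' averages were not used. Dividing by the worth of 1 read gave whole reads, to within 0.01, for 100.0% of values above 0. In 4 libraries a read was worth nearly 1 unit, where that test is weak. kallisto estimates counts, so genes with near-identical copies carry uncertain values. Titles gave group and replicate, although replicate 3 of epidermis, stele and cortex has a 2 in its description. Intervals and floors cover counting error only.

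Members, lists and comparisons were chosen with earlier results of these data known. The rule drew on identifiers beginning Zm00001d, leaving out 174 others and 4 that it names. Values were fitted as log2(value + 1), which understates the change of low genes, with limma 3.58.1 in R 4.3.3 (a mean per group over 21 libraries, trended prior variance). Recovered reads were tested with edgeR 4.0.16 (quasi-likelihood, TMM) and DESeq2 1.42.0 as alternatives, beside quantile normalization, a pseudocount of 10, no filter, no fold threshold, compared groups alone, weights per group, a replicate block and leaving out each library. Leaving the quiescent center out of the fit, and recomputing shares and relative levels without endodermis replicate 1 or cortex replicate 3, were added after the data were seen. Folds against a group at 0 are bounds from geometric means against 3 reads per library. On data simulated for stele against cortex, over 24738 genes, 30.0% of 4-fold and 62.0% of 8-fold changes were recovered, with 6 false calls. Changes were planted only in genes with a mean of at least 100 units over the 21 libraries. The median member mean was 124 units in the stele and 23.6 in the cortex, so these shares may not hold for the members.

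Members named are the 10 of highest rank, the 5 of highest endodermis mean, ranks 198 to 203, the 2 highest relative to endodermis in unsorted protoplasts, intact tips, quiescent center and root cap, and members with consecutive identifiers. Per comparison they also include up to 2 called members in each direction with the largest change, not overlapping and averaging 20 or more in the higher group.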

Additional observations from a re-analysis of the deposited data

How the results depend on the processing

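Replicate numbers shared between groups did not pair the libraries. Over 63 pairs of the same number the mean correlation of deviations was −0.01, and the best correlation was with the library's own number for 6 of 21. With the replicate block the members called were 33 for stele against cortex, 26 for unsorted protoplasts against intact tips, 112 for quiescent center, 27 for unsorted protoplasts and 83 for root cap. Over all genes, the block gave 905, 4060, 10613, 2106 and 7839 calls, in the same order. Counts recomputed numbered 126, of members called and of members kept by the rule together. Of these, 104 stayed within 1.5 times the main count and 22 moved further. All that moved were counts of members called. Most were for stele against cortex and for unsorted protoplasts against dye-sorted tissues. For stele against cortex, 66 members were called with quantile normalization, 83 with a pseudocount of 10, 62 with the compared groups alone, 71 with weights per group and 7 with edgeR. Over all genes these settings called 1590, 1785, 1955, 2213 and 570, against 1022 in the main fit. For unsorted protoplasts against intact tips, edgeR called 18 members and 3350 of all genes, against 4253 of all genes in the main fit. For quiescent center against dye-sorted tissues, quantile normalization gave 73 and weights per group 49. Over all genes they gave 10434 and 5139, against 10742 in the main fit. For unsorted protoplasts against dye-sorted tissues, the compared groups alone gave 47, edgeR 10 and a fit without the quiescent center 45. Over all genes they gave 3974, 1062 and 3856, against 2348 in the main fit. Leaving out single libraries gave 12 to 58 calls for stele against cortex, 21 to 31 for unsorted protoplasts against intact tips, 96 to 117 for quiescent center, 10 to 36 for unsorted protoplasts against dye-sorted tissues and 71 to 85 for root cap. Over all genes those ranges were 353 to 1127, 2617 to 3677, 9599 to 10785, 1391 to 2604 and 6537 to 7910. The cause of these changes was not tested. Of 300 recomputed values of single genes, 285 kept their call, 15 lost it and 0 reversed. Settings in which a gene was not tested or had no adjusted p are not among them. These genes were named because the main fit called them without overlap and with the largest changes. The counts therefore follow largely from that choice and do not describe the members in general. The rule kept 190 of the 200 members with 10 units added to each mean, 196 with TMM scaling, 177 with geometric means, 150 with the 5 sorted tissues only, 176 without the quiescent center, 155 with a lowest mean of 30 and 165 to 200 without single libraries. Genes near 0 are limited by depth to 1.81 to 4.46 units.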
